A study of Mus musculus with 13 samples.

Results

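The regions described here are 402 Sox9 peaks of mouse rib chondrocytes that stand early in the rib peak list, belong to its Class II, and have no Sox9 peak of nasal septum chondrocytes near them. They were chosen by 3 readouts of the same lists. A peak had to be in the authors' Class II list, to stand among the first 2766 places of the whole rib list (the first of 10 equal parts), and to have no nasal peak overlapping it or within 1000 bp, edge to edge. The 402 peaks are 1.45% of the 27656 rib peaks. They are set below against 2 other sets, the 2143 early-listed Class II peaks that do have a nasal peak within 1000 bp (shared early peaks), and the 12214 Class II peaks listed after place 2766 that have none (later rib-only peaks).

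The series profiled chondrocytes of untreated wild-type ICR mice by chromatin immunoprecipitation and sequencing (ChIP-seq). Both libraries used here were made with the same Sox9 antibody, 1 from enzyme-digested rib cartilage at postnatal day 1 and 1 from enzyme-digested nasal septum at embryonic day 17.5. Tissue and stage therefore differ together between the lists and cannot be told apart. The lists give positions on mm9 and nothing else, so read depth, peak height and the meaning of the order of the list are unknown, and no RNA or marker gene checks the labelled cell type. Each tissue has 1 library and no replicate, so the intervals below are 95% intervals that cover counting error only, and neighbouring peaks are not independent.

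Sox9 is a transcription factor with an HMG box, a DNA-binding domain that bends the double helix at short A- and T-rich sites. Chondrocytes need it to form and to switch on the genes of the cartilage matrix, often through several sites far from a gene. Ribs form from the mesoderm of the somites, whereas nasal septum cartilage forms from the cranial neural crest, so the same factor acts in cells of separate embryonic origin.

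An absent nasal peak was rare at the head of the rib list. Of the 2545 early-listed Class II peaks, 2066 shared bases with a nasal peak or touched one, 77 had a nasal peak 1 to 1000 bp away, and the 402 remaining ones, 15.8%, had none. Over all rib peaks, of both classes, the share with no nasal peak within 1000 bp was 50.1%. Of the 20862 Class II peaks at all places, 12616 had none. The rib-only peaks were unevenly placed within the early places. In the first of 4 equal parts of these places they made up 36 of 650 Class II peaks, 5.54% (3.91% to 7.59%), and in the second part 67 of 650, 10.3% (8.08% to 12.9%). In the third part they were 128 of 634, 20.2% (17.1% to 23.5%), and in the last 171 of 611, 28.0% (24.5% to 31.7%). Their median place was 1935.5, against 1228 for the shared early peaks. These values follow the readouts that chose the peaks and are a description.

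**Figure D1:**
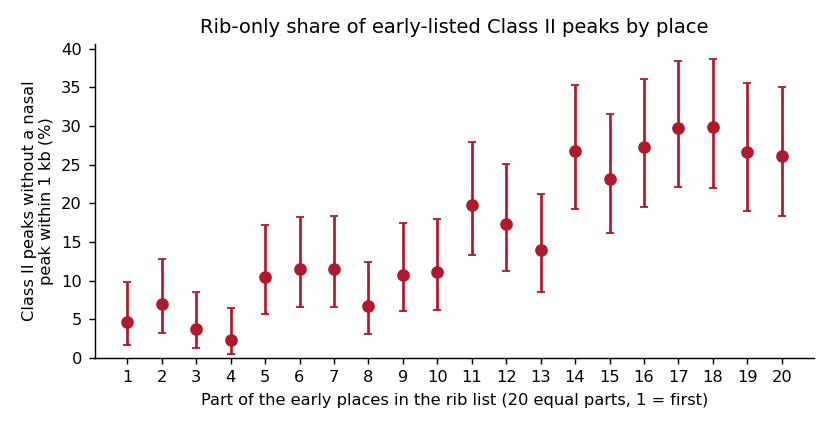
Share of early-listed Class II peaks that have no nasal peak within 1 kb (y axis, percent) in 20 equal parts of the first 2766 places of the rib list (x axis). Points are shares and bars 95% exact binomial intervals; the share lies between 2.27% and 11.5% in parts 1 to 10 and between 14.0% and 29.8% in parts 11 to 20.

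Peaks just inside and just outside the limits of the choice were picked as the closest to them. Their nearness in nasal distance or place follows from that pick. The nearest nasal peak lay 1013, 1169 and 1204 bp away from the 3 members closest to one, and 961, 833 and 826 bp away from the 3 early-listed Class II peaks just on the other side of the limit. The last members stood at places 2746, 2747 and 2750, and the first rib-only Class II peaks past the limit at 2769, 2770 and 2773. The first of these, at chr3:59928385-59928586, lies on the same stretch of chromosome 3 as the tenth member of the list.

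The 10 members that stand first in the rib list had varied surroundings. The first, at place 55, was chr16:87044110-87044297, 84.5 kb from the nearest nasal peak and 19.0 kb from the nearest other rib peak. The second, at place 63, was chr16:30860222-30860403, with 6 other rib peaks within 50 kb and the nearest nasal peak 114 kb away. The third, chr2:25999854-26000048 at place 66, was of another kind, with a nasal peak 3.79 kb away and a Class I peak within 50 kb. Place 80, chr2:101045881-101046060, stood alone, with the nearest rib peak 105 kb away and the nearest nasal peak 423 kb away.

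Places 107 and 108 were chr15:50231975-50232155 and chr14:54740964-54741139. The former had another rib peak 0.825 kb away and the latter none within 50 kb, and both lay more than 100 kb from a nasal peak (140 kb and 101 kb). Place 151, chr7:72926258-72926478, had a nasal peak at 9.61 kb and 2 other rib peaks within 10 kb. Place 207, chr9:75721461-75721660, had a single other rib peak within 50 kb, at 46.7 kb, and a nasal peak at 91.8 kb. Place 224, chr8:42216386-42216631, had 10 other rib peaks and 5 nasal peaks within 50 kb, the nearest nasal peak at 7.02 kb. Place 238, chr3:59944177-59944386, had 3 other rib peaks within 50 kb, the nearest at 3.41 kb, and no nasal peak nearer than 153 kb. In all, 8 of these 10 had another rib peak within 50 kb, where all members gave 85.6% and all rib peaks 85.2%. A nasal peak lay within 50 kb of 3 of the 10, where all members gave 60.9%, and 10 peaks are too few to set the values apart.

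Members were of ordinary width. Their median was 181 bp, with quartiles of 155 and 223 bp and a range of 20 to 450 bp, against a median of 177 bp (148 to 211 bp) in the shared early peaks and 183 bp (139 to 235 bp) in the later rib-only peaks. Of the members, 209 of 402, 52.0% (47.0% to 57.0%), were at least as wide as the median rib peak of 180 bp, where all rib peaks gave 50.5%. The difference was 3.69 percentage points from the shared early peaks (95% Newcombe interval -1.63 to 8.98) and -0.12 points from the later rib-only peaks (-5.08 to 4.80), so neither was larger than counting error. Wide peaks did differ. Widths at or above the upper quartile of the rib list, 232 bp, were found in 20.6% of members, where all rib peaks gave 25.1%, in 14.9% of the shared early peaks (difference 5.71 points, 1.72 to 10.2) and in 26.3% of the later rib-only peaks (difference -5.67 points, -9.42 to -1.37). The last difference was 0.20 points (-4.39 to 5.12) against the 900 rib-only Class II peaks of the next 2766 places alone. The widest members were chr8:106494706-106495155 with 450 bp, which had no rib or nasal peak within 50 kb, chr1:81963847-81964272 with 426 bp, and chr15:11629480-11629884 with 405 bp.

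Members had other rib peaks around them less often than the shared early peaks. Another rib peak of either class lay within 10 kb of 230 of the 402 members, 57.2% (52.2% to 62.1%), where all rib peaks gave 52.9%. The shared early peaks reached 67.1% (65.1% to 69.1%), a difference of -9.89 points for the members (-15.1 to -4.73). The nasal limit of the choice separates these 2 sets, and 78.1% of all nasal peaks had a rib peak within 1 kb. This difference is therefore not independent of the choice and is a description. With a nasal limit of 10 kb it was -28.2 points (-34.0 to -22.1). The later rib-only peaks reached 47.6% (46.7% to 48.5%), and the members stood 9.59 points above them (4.63 to 14.4). The second comparison rests on how far down the list the later set reaches. Against rib-only Class II peaks of the next 2766 places alone, the members were 4.21 points higher, with an interval of -1.65 to 9.98.

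The shortfall against the shared early peaks was seen for neighbours of both classes and is likewise a description. Class I neighbours within 10 kb were found for 21 members, 5.22% (3.26% to 7.87%), and for 9.10% of the shared early peaks, a difference of -3.88 points (-6.08 to -1.01). All Class II peaks together gave 8.12%. Within 50 kb the shares were 25.1% and 33.7%, a difference of -8.61 points (-13.1 to -3.74), with 31.0% over all Class II peaks. The later rib-only peaks had a Class I peak within 10 kb in 6.93%, which differed from the members by less than counting error (-1.70 points, -3.54 to 0.96). Against the next 2766 places alone the members were lower by more than that, with a difference of -3.44 points (-6.14 to -0.33). Among peaks with a rib peak within 10 kb, the nearest one was of Class I for 11 of the 230 members, 4.78%, and 9.90% of the later rib-only peaks, a difference of -5.12 points (-7.36 to -1.47), where all such Class II peaks gave 9.61%. The shared early peaks gave 7.58% here, a difference of -2.80 points (-5.36 to 0.99). Class II neighbours within 10 kb were found for 55.7% of members, 63.9% of the shared early peaks and 43.9% of the later rib-only peaks, where all Class II peaks gave 49.6%. The first difference was -8.21 points (-13.5 to -3.01), and between places 1384 and 2766 alone it was -6.04 points, with an interval of -12.5 to 0.34. The second was 11.8 points (6.81 to 16.6), and against the next 2766 places alone 7.05 points (1.18 to 12.8).

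**Figure D2:**
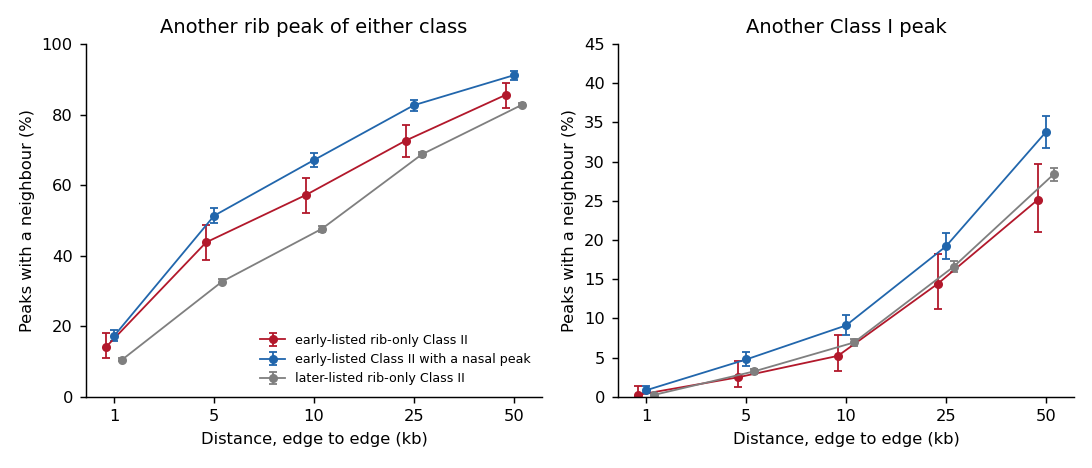
Share of peaks with another rib peak of either class (left) or with a Class I peak (right) within 1, 5, 10, 25 and 50 kb, for members (red), early-listed Class II peaks with a nasal peak (blue) and later-listed rib-only Class II peaks (grey). Bars are 95% exact binomial intervals; at 10 kb the left panel shows 57.2%, 67.1% and 47.6%, and the right panel 5.22%, 9.10% and 6.93%.

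Chains of rib peaks spaced at most 10 kb apart placed the members in their surroundings. Of the 402 members, 172 stood alone, 87 were in a chain of 2, 97 in a chain of 3 or 4 and 46 in a chain of 5 or more. Chains of 5 or more thus held 11.4% of members (8.50% to 15.0%), 17.1% of the shared early peaks (15.5% to 18.7%) and 8.37% of the later rib-only peaks (7.88% to 8.87%), where all rib peaks gave 10.4%. Chains are built from rib neighbours, so the difference from the shared early peaks is again not independent of the nasal limit and is a description. The share of the later set was not recomputed for the places next in the list alone. The longest chain with a member had 16 peaks. Of the 230 members in a chain, 122 shared it with a rib peak that had a nasal peak within 1 kb, and 108 stood in chains of rib-only peaks alone. The latter are 47.0% (40.4% to 53.6%), against 46.6% of the later rib-only peaks in a chain (difference 0.40 points, -6.07 to 6.98) and 46.2% of all rib peaks in a chain that have no nasal peak within 1 kb. Among the 230 members with a rib peak within 10 kb, 178 stood earlier in the list than all of these neighbours, 77.4%, where all rib peaks with such a neighbour gave 39.5%. Early place was part of the choice, so this is a description.

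Members stood next to a rib peak with a nasal counterpart about as often as the other sets did. For the nearest rib neighbour 2 to 10 kb away, far enough not to depend on the same 1 kb surroundings, 80 of 182 neighbours of members had a nasal peak within 1 kb, 44.0% (36.6% to 51.5%). The share was 43.8% next to the shared early peaks and 45.2% next to the later rib-only peaks, and 49.2% over all rib peaks with a neighbour at that distance. The differences were 0.11 points (-7.45 to 7.89) and -1.23 points (-8.39 to 6.17), which leaves room for a difference of several points either way. With neighbours nearer than 2 kb included, the difference from the shared early peaks was -27.2 points (-33.4 to -20.5), but there a single nasal peak can serve a peak and its neighbour at once.

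Beyond the limit of 1 kb, a nasal peak lay within 10 kb of members about as often as of other rib-only peaks. The nearest one was less often 10 to 50 kb away. The nearest lay a median of 29.7 kb away, with quartiles of 7.65 and 89.1 kb, against 27.2 kb (9.39 to 74.5 kb) for the later rib-only peaks, which obey the same limit. A nasal peak lay within 10 kb of 118 members, 29.4% (24.9% to 34.1%), and of 26.3% of the later set, a difference of 3.08 points (-1.23 to 7.77), where all rib peaks with none within 1 kb gave 26.8%. One lay within 50 kb of 60.9% of members (56.0% to 65.7%) and 65.9% of the later set, a difference of -4.95 points (-9.87 to -0.23), where all rib peaks with none within 1 kb gave 66.1%. Against the next 2766 places alone this difference was -4.39 points, with an interval of -10.1 to 1.23. Members were fewer at 10 to 50 kb (31.6%, 27.1% to 36.4%, against 39.6%, 38.7% to 40.5%, difference -8.03 points, -12.5 to -3.25) and more at 100 to 500 kb (21.6%, 17.7% to 26.0%, against 16.5%, 15.9% to 17.2%, difference 5.10 points, 1.29 to 9.43). All rib peaks with none within 1 kb gave 39.2% and 16.3% in these bands. These were the bands with the largest differences among those counted, and the intervals were not adjusted for that. Members and the later set gave 17.7% and 14.4% at 1 to 5 kb, and 11.7% and 11.9% at 5 to 10 kb. They gave 15.4% and 14.8% at 50 to 100 kb. The next 2766 places alone gave 38.0% at 10 to 50 kb, a difference of -6.41 points for the members (-11.8 to -0.77). At 100 to 500 kb they gave 18.2%, and that difference, 3.42 points (-1.17 to 8.32), was within counting error.

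**Figure D3:**
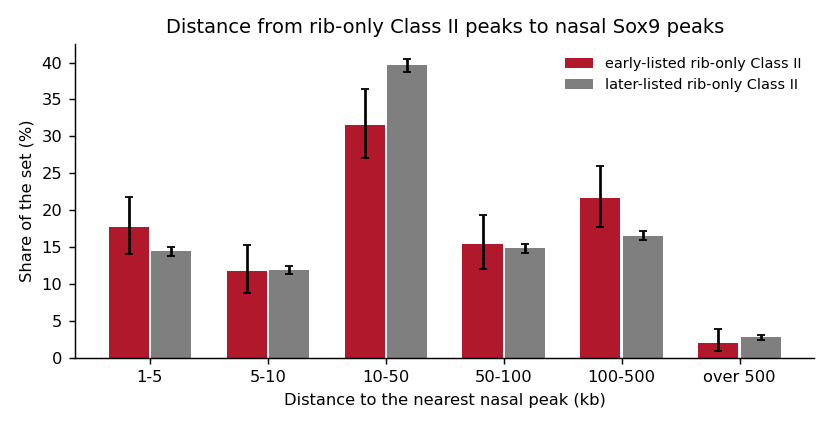
Share of members (red) and of later-listed rib-only Class II peaks (grey) by distance to the nearest nasal Sox9 peak (x axis, kb), with 95% exact binomial intervals. Members hold 31.6% at 10 to 50 kb against 39.6% in the later set, and 21.6% against 16.5% at 100 to 500 kb. These are the bands that differ most.

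Some members lay in regions with other rib peaks and no peak of the nasal list. Another rib peak but no nasal peak lay within 50 kb of 103 members, 25.6% (21.4% to 30.2%), against 19.1% (18.4% to 19.8%) of the later rib-only peaks, a difference of 6.53 points (2.44 to 11.1). Over all rib peaks with no nasal peak within 1 kb the share was likewise 19.1%. Against the next 2766 places alone the difference was 3.40 points (-1.52 to 8.58). A further 54 members had neither a rib nor a nasal peak within 50 kb, 4 had a nasal peak but no other rib peak, and 241 had both. No other rib peak thus lay within 50 kb of 58 members, 14.4%, against 17.3% of the later set and 14.8% of all rib peaks. On a scale of 1 Mb the lack of a listed nasal peak was rare. Only 12 members, 2.99%, lay in a fixed window of 1 Mb without a nasal peak, against 3.03% of the later set.

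The most remote member was chr14:110412500-110412685, at place 394, with the nearest nasal peak 4001 kb away and another rib peak at 6.64 kb. Next came chr2:99873225-99873432, 1596 kb from a nasal peak and 839 kb from any other rib peak, and chr3:110113345-110113526, 1139 kb from a nasal peak with another rib peak at 20.3 kb. In all, 8 members, 1.99% (0.86% to 3.88%), lay more than 500 kb from a nasal peak, against 2.75% of the later rib-only peaks. All rib peaks with none within 1 kb gave 2.70%, so members were not more often this remote.

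Where a nasal peak did lie near a member, it was almost always matched by another rib peak. For 114 of the 118 members with a nasal peak within 10 kb, the nearest such peak had a rib peak of its own within 1 kb, 96.6% (91.5% to 99.1%). The share was 84.8% (83.5% to 86.0%) for the later rib-only peaks, a difference of 11.8 points (6.64 to 14.2), and 84.7% over all rib peaks with a nasal peak at that distance. The difference was 9.21 points (3.06 to 14.4) against the next 2766 places alone. Neighbouring rib peaks can have the same nearest nasal peak, and with each nasal peak counted once the shares were 112 of 116 and 2206 of 2629, a difference of 12.6 points (7.38 to 15.2). Over the whole nasal list, 78.1% of peaks had a rib peak within 1 kb. The members also had more rib neighbours than the later set, and the part of that in the difference was not tested. The nasal peaks nearest to members stood at a median place of 8530 in the nasal list, close to the list's middle at 8720.5. They were therefore not drawn from the head of the nasal list.

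A few members lay side by side. Joined at up to 10 kb, all members formed 373 single peaks, 13 pairs and 1 group of 3. Whether an equal number of other rib peaks would form as many groups was not tested. The group of 3 lay on chromosome 10 within 1887 bp, as chr10:93407150-93407326, chr10:93408137-93408326 and chr10:93408746-93409036. Its places were 2118, 1959 and 259, so that a very early peak stood beside 2 later ones, and the nearest nasal peak was 54.5 kb away. Of the pairs, the one listed first lay at chr16:30850561-30850785 and chr16:30860222-30860403, at places 434 and 63, with 5 later-listed rib-only peaks within 50 kb of its middle and no nasal peak nearer than 105 kb.

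The next pair, chr14:22409045-22409235 and chr14:22412241-22412448, differed in having a nasal peak 4.03 kb away and 3 nasal peaks within 50 kb of its middle. The pair chr16:26147092-26147201 and chr16:26149318-26149644 had 1 other rib peak within 50 kb of its middle and its nearest nasal peak at 63.9 kb. The pair chr3:101039310-101039494 and chr3:101041143-101041365 had no other rib peak in that span, and its nearest nasal peak lay at 56.2 kb. No Class I peak lay within 10 kb of any of these 5 groups.

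**Figure D4:**
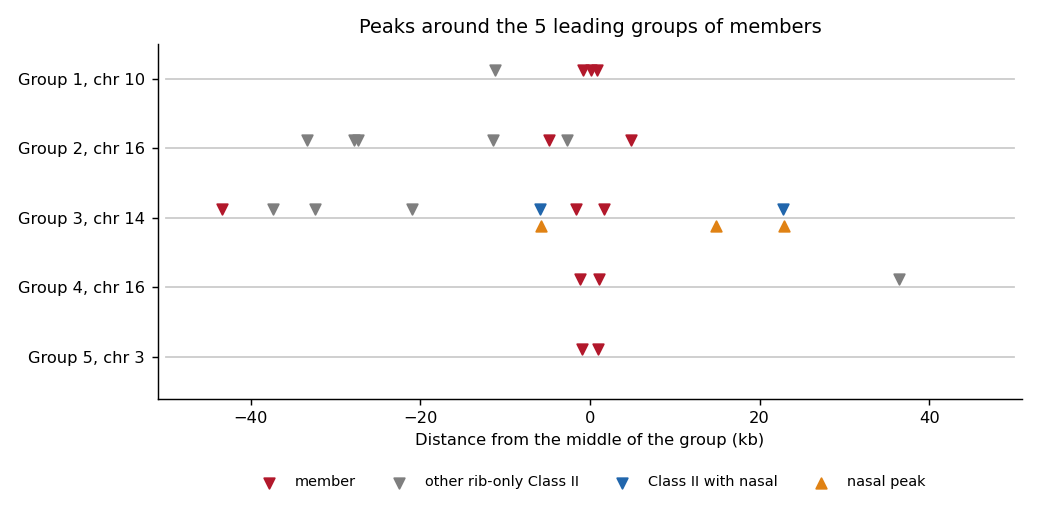
Peaks within 50 kb of the middle of the 5 leading groups of members (x axis, distance in kb; 1 row per group). Red triangles are members, grey triangles other rib-only Class II peaks, blue triangles Class II peaks with a nasal peak within 1 kb, and orange triangles nasal peaks, which appear in the row of group 3 alone; no Class I peak lies in these spans.

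The opposite surroundings also occurred. The member with the most other rib peaks within 50 kb was chr7:124676599-124676790, with 18 of them, none of Class I, and 9 nasal peaks, the nearest at 7.53 kb. On the same chromosome, chr7:86171676-86171864 and chr7:86187481-86187634 had 17 and 15 other rib peaks within 50 kb, 6 and 5 of them of Class I, and nasal peaks at 5.06 and 1.20 kb. The members chr8:110019407-110019599 and chr6:137484207-137484411 each had 15 other rib peaks within 50 kb, none of Class I, beside 11 and 6 nasal peaks. All 5 thus lay in regions dense in rib peaks that nasal peaks also occupied.

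Members occupied 330 fixed windows of 1 Mb, 275 of them with a single member, 40 with 2, 13 with 3 and 2 with 4. No set of equal size was counted in the same way, so clustering of members was not tested. The windows with 4 were chr2:78000001-79000000, which held 17 rib peaks and 3 nasal peaks, and chr4:11000001-12000000, which held 22 and 11.

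On a few chromosomes the share of members departed from that of all other rib peaks or of the shared early peaks. Chromosome 3 carried 40 of them, 9.95% (7.20% to 13.3%), against 5.65% of all other rib peaks (difference 4.30 points, 1.73 to 7.63) and 5.93% of the shared early peaks (4.02 points, 1.25 to 7.47). Chromosome 6 carried 13, 3.23% (1.73% to 5.47%), against 5.86% of other rib peaks (-2.62 points, -3.99 to -0.39) and 5.79% of the shared early peaks (-2.55 points, -4.26 to -0.15). Chromosome 8 carried 11, 2.74% (1.37% to 4.84%), against 4.91% (-2.17 points, -3.40 to -0.06) and 5.41% (-2.68 points, -4.27 to -0.40). The later rib-only peaks gave 5.77% on chromosome 3, 5.85% on chromosome 6 and 4.69% on chromosome 8. No interval was computed for the differences from that set.

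Chromosomes 1 and 11 differed from the other rib peaks alone, by 2.65 points (0.08 to 5.98) and -2.53 points (-4.19 to -0.03), and chromosome 15 differed from the shared early peaks alone, by -2.38 points (-4.02 to -0.05). For the other chromosomes the intervals of both differences held 0. On chromosomes 1, 11 and 15 members gave 9.95%, 4.48% and 2.99%, and the later rib-only peaks 8.04%, 6.29% and 4.31%, again without an interval. Each comparison made 20 intervals without adjustment, and several of those above end close to 0. Chromosome X carried 4 members, 1.00% (0.27% to 2.53%), where all other rib peaks gave 1.06%.

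**Figure D5:**
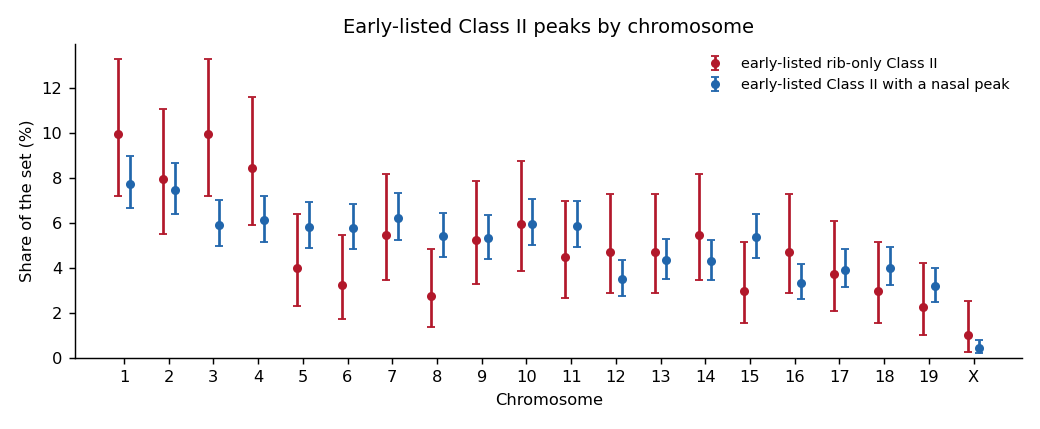
Share of members (red) and of early-listed Class II peaks with a nasal peak (blue) on each chromosome (y axis, percent of the set), with 95% exact binomial intervals. Members reach 9.95% on chromosome 3 against 5.93%, and 2.74% on chromosome 8 against 5.41%.

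The density of members had a weak negative correlation with gene density across the autosomes, which so few chromosomes leave uncertain. Across the 19 autosomes, the density of protein-coding genes and the density of peaks, both per Mb, had a Pearson's r of -0.17 for members (Spearman's rho -0.20), 0.48 for the shared early peaks (rho 0.54) and 0.50 for the later rib-only peaks (rho 0.40). Without chromosomes 7 and 11, which lie farthest from the median gene density, r was -0.13, 0.50 and 0.59. These values describe 19 chromosomes, with 9 to 40 members each, that share the 2 libraries, and the differences between them were not tested. The small counts make the value for members less certain than those of the larger sets. Genes were counted per chromosome without use of their positions, and which genes lie near a member was not analysed here.

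Earlier and later members within the early places had like medians. The 103 members at places up to 1383 and the 299 at later places both had a median width of 181 bp, and the nearest nasal peak lay a median of 29.7 kb away in both. Another rib peak lay within 10 kb of 61.2% of the former (51.1% to 70.6%) and 55.9% of the latter (50.0% to 61.6%), a difference of -5.31 points (-15.8 to 5.81). The share with a nasal peak within 10 kb was 33.0% and 28.1%, a difference of -4.92 points (-15.6 to 4.98). Within 50 kb the sign was the opposite, with 57.3% and 62.2%, a difference of 4.93 points (-5.79 to 15.9). All 3 differences were within counting error, which with 103 peaks in the smaller set is wide.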

How the data were processed

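Peaks came from 2 Sox9 ChIP-seq libraries, 1 of rib and 1 of nasal septum chondrocytes. Chromatin of 20000000 cells was fixed with 1% formaldehyde and sheared to 100 to 600 bp, per the labels' protocols. The authors deposited 4 peak lists (all rib peaks, Class I, Class II, nasal) of chromosome, start and end, without a score. Per the submitters' processing notes, positions are on mm9. The names of the lists carry the labels 2s and FDR1, which the sources used here do not explain. For the aligner, caller, control library, class definition and list order, these sources give nothing.

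Positions are printed with 1 added to the deposited start. Gaps run edge to edge, and touching peaks have a gap of 0. Shares have 95% exact (Clopper-Pearson) intervals, differences have 95% Newcombe intervals, and no p-value was computed. Regions named are the 10 members first in the list, the 5 groups with the most members (ties by the earliest place in the group), the 3 widest, the 3 farthest from nasal peaks, the 3 on each side of each limit and the 5 with the most rib peaks within 50 kb. The 2 windows of 1 Mb were chosen after their values were seen. Members, sets and rules were chosen with earlier results of these data known. Sequence and gene positions need mm9 and were not analysed here. Protein-coding genes per chromosome came from RefSeq for GRCm38.p6, divided by the mm9 span of rib peaks.

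Tested on simulated data, 500 of 500 planted gaps were recovered, and 0 of 27656 real gaps differed from those of bedtools 2.31.1. Of 2000 simulated Newcombe intervals, 95.1% held the planted difference. Software was numpy 2.4.6, scipy 1.17.1, pandas 2.3.3, matplotlib 3.10.9 and statsmodels 0.14.6 under Python 3.11.15.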

Additional observations from a re-analysis of the deposited data

How the results depend on the processing

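Of 74 values recomputed under other settings for 22 results, 50 kept their direction and their side of 0 or, for counts, stayed within 1.5 times. The number of members was 103 in the first of 20 parts of the list and 1302 in the first 2 of 10, by construction, and 284 to 479 when the distance to a nasal peak was changed. The other values are differences in percentage points, and the cause of a change was not tested. Against shared early peaks, the width difference was 5.71 at the upper quartile, and neighbours within 1 kb gave -3.13 for all rib peaks, -0.59 for Class I and -2.34 for Class II, all 3 with intervals that held 0. The Class II value was -6.04 in the second of 20 parts. When the limit to a nasal peak was 10 kb, the neighbour difference was -28.2. At that limit, peaks with a nasal peak 1 to 10 kb away are no longer members. Sharing of the nearest neighbour was -27.2 with all neighbours within 10 kb. Against later rib-only peaks, the width difference was -5.67 at the upper quartile, and rib neighbours gave 3.94 at 25 kb, 2.86 at 50 kb and 4.21 against the second of 10 parts. Class I neighbours gave 0.0031 at 1 kb, 0.095 with the limit of 10 kb and -3.44 against the second of 10 parts, where the interval (-6.14 to -0.33) left out 0, unlike that of the value reported. Sharing of the nearest neighbour was 2.06 in the second of 20 parts. A nasal peak nearby gave -0.59 at 25 kb, -4.95 at 50 kb and -4.33 at 100 kb. Against the second of 10 parts, a nasal peak within 50 kb gave -4.39 and widths at or above the upper quartile 0.20, and a nearest nasal peak at 100 to 500 kb gave 3.42 with an interval that held 0. Rib peaks without a nasal peak gave 2.46 at 25 kb and 3.40 against the second of 10 parts. Settings chosen after seeing the data were the second of 10 parts for rib neighbours, wide peaks and nasal peaks within 50 kb, at 10 to 50 kb and at 100 to 500 kb, for chains of rib-only peaks and for a nearest neighbour of Class I, the second of 20 parts for width, and all settings for sharing of the nearest neighbour, for rib peaks without a nasal peak and for nasal peaks with a rib peak of their own. No paired analysis was possible because each group has 1 library. Sequence and gene alternatives were not run.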
